A study of Rattus norvegicus with 12 samples.

Results

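The targets of the transcription factor Nrf2 examined here were Nqo1, Gstp1, Hmox1, Txnrd1, Gclm and Gclc. They were chosen by the gene symbol that the platform annotation gives each probe. The rule uses no measured value, but the genes were picked with earlier results of these data known. They were 6 of the 13337 named genes on the array. Of 22523 probes on the Illumina RatRef-12 array, 8 carried 1 of these 6 symbols. Gstp1 had 3 probes and each of the other genes had 1. A probe for a Gstp1 expressed sequence tag, ILMN_1530215, was not detected on any of the 12 arrays, with intensities between 41.3 and 59.4, and was not tested. The other 7 probes were detected on all 12 arrays at a detection p under 0.01, and all 7 were among the 11792 probes that passed the filter on dim signals (detection p under 0.01 on at least 2 arrays).

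The arrays came from a study of transcript changes that 5 min of synaptic activity causes with and without transcription. Hippocampal neurons from rats at embryonic day 18.5 were grown for 12 days atop a feeder layer of glia. All cultures were first silenced for 3 hours in Neurobasal medium without the B27 supplement. The inhibitors were TTX (100 nM, against sodium channels), CNQX (40 µM, against AMPA receptors) and D-APV (50 µM, against NMDA receptors). Activity cultures with actinomycin D (ActD, 25 µM, an inhibitor of transcription) and Activity cultures without it then received 50 µM bicuculline and 500 µM 4-aminopyridine (BiC/4-AP) for 5 min. Block cultures with ActD and Block cultures without it stayed in the inhibitors. Cultures without ActD received the DMSO solvent. RNA was taken at the end of the stimulus (5 min) or 30 or 60 min after it. By the scheme of the study, cultures not harvested at 5 min were then given fresh medium without BiC/4-AP. ActD was given before the stimulus, so that exposure to it was already longer than the stimulus at the first harvest. Each of the 12 combinations was 1 array of 3 pooled coverslips, and no group held replicates.

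Nrf2, encoded by Nfe2l2, is the main activator of antioxidant and detoxifying genes. Keap1 and the Cul3 ubiquitin ligase normally hold it at a low level, and oxidants or electrophiles release it to bind antioxidant response elements with a small Maf protein. Its targets divide into a few tasks: quinone reduction (Nqo1) and glutathione conjugation (Gstp1), haem breakdown (Hmox1), thioredoxin reduction (Txnrd1) and glutathione synthesis (Gclm and Gclc). In brain tissue, astrocytes are known for a strong Nrf2 response, and mature neurons for a weak one.

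Promoter windows of the RefSeq rat annotation, from 250 bases before to 50 bases after a start site, were searched for the core of the antioxidant response element, TGACNNNGC, on both strands. They are shown because the 6 genes are grouped by the factor that binds this element. Windows were found for 5 of the 6 genes, 6 windows in all since Txnrd1 had 2 start sites, and 3 of the 6 held a match, against 12.1% of all windows (4038 of 33469). In the sequences here, written along the gene in build GRCr8 from the 5′ end, the capitals mark the 9 bases of the match. The first lies at chr1:210769750-210769774 (minus strand), the second at chr2:213031955-213031979 (plus strand) and the third at chr7:22755966-22755990 (minus strand).
Gstp1: cactgtgtTGACTCAGCatccgggg
Gclm: cggtttctGCTTAGTCAttgtcttc
Txnrd1: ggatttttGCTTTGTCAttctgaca
The match began 61 bases before the start site in Gstp1, 172 bases before it in Gclm and 78 bases before it in Txnrd1, and it read along the opposite strand in Gclm and Txnrd1. The windows of Nqo1 and Gclc held no match, and Hmox1 had no entry among the windows. A match of these letters is a description and not a measured binding site. Bases outside the windows were not searched, so a window without a match does not show that its gene lacks the element.

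Total intensity per array ranged from 10858200 to 13824800, and between 9751 and 11032 probes were detected. The 4 arrays of 5 min differed from the 8 later ones in markers of other cells. Neuronal markers (10 of 10 tested) summed to 60670 to 75650 on the later arrays, against 48770 to 57740 at 5 min. Astrocyte markers (7 tested of 10 listed), which include Gfap, summed to 45170 to 52630 on the later arrays, against 47850 to 54430 at 5 min. Microglial markers summed to 92.0 to 137 on the later arrays, against 967 to 1559 at 5 min, and all 7 of the microglial probes tested were lower later. The microglial marker Aif1 was detected on 5 of the 12 arrays, with a mean log2 level of 9.43 at 5 min, 4.96 at 30 min and 4.45 at 60 min, and C1qc was not detected on any array. Fibroblast and vessel markers summed to 784 to 1318 on the later arrays, against 1314 to 1601 at 5 min. The collagens Col1a2 (-1.60 with ActD and -1.55 without it), Col1a1 (-1.14 and -1.18) and Col3a1 (-0.81 and -1.09) were called lower later. Lum was called higher later in cultures with ActD (1.36) and not in those without it (0.09). Of the astrocyte markers, S100b (-0.86 and -0.56) and Gfap (-0.59 and -0.50) were called lower and Aldoc (0.34 and 0.48) higher. Gja1 (0.46) and Aqp4 (0.90) were called higher later in cultures with ActD alone. In the oligodendrocyte lineage, Pdgfra was called higher later (0.99 and 0.61), and Sox10 (-0.44) and Cspg4 (-0.27) were called lower later in cultures with ActD alone. The part of these markers in the harvest differences of the targets was not tested. The labels do not say whether the harvests came from 1 preparation or from several. Time after the stimulus, the medium change after it and the make-up of the cultures or arrays of a harvest cannot be told apart. In such bulk RNA, fewer cells of a type and less RNA per cell cannot be told apart either.

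The differences between harvests were the largest that the Nrf2 targets showed. Nqo1, Gstp1 and Hmox1 were 1.78- to 2.83-fold lower in the mean of 30 and 60 min than at 5 min, in cultures with ActD and in those without it. Gclc went the other way and was higher later with ActD. Levels here are log2 intensities after background correction and quantile normalization, each difference is given with its SE, and adjusted p-values are from limma with Benjamini-Hochberg adjustment over all 11792 probes. In counts here and below, a probe fell or rose where its adjusted p was under 0.05. With ActD, 5 of the 7 probes fell and 1 rose, with a median difference of -0.94 over the 7 against -0.04 over all probes. Of all probes 47.7% were called in this comparison, 23.8% higher and 23.9% lower. Without ActD, 5 of the 7 fell and none rose, with a median of -0.83 against 0.03, and 26.7% of all probes were called, 14.4% higher and 12.3% lower. The falls with ActD and those without it each include both detected Gstp1 probes. By sign alone, 6 probes were lower and 1 was higher, with ActD and without it.

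**Figure D1:**
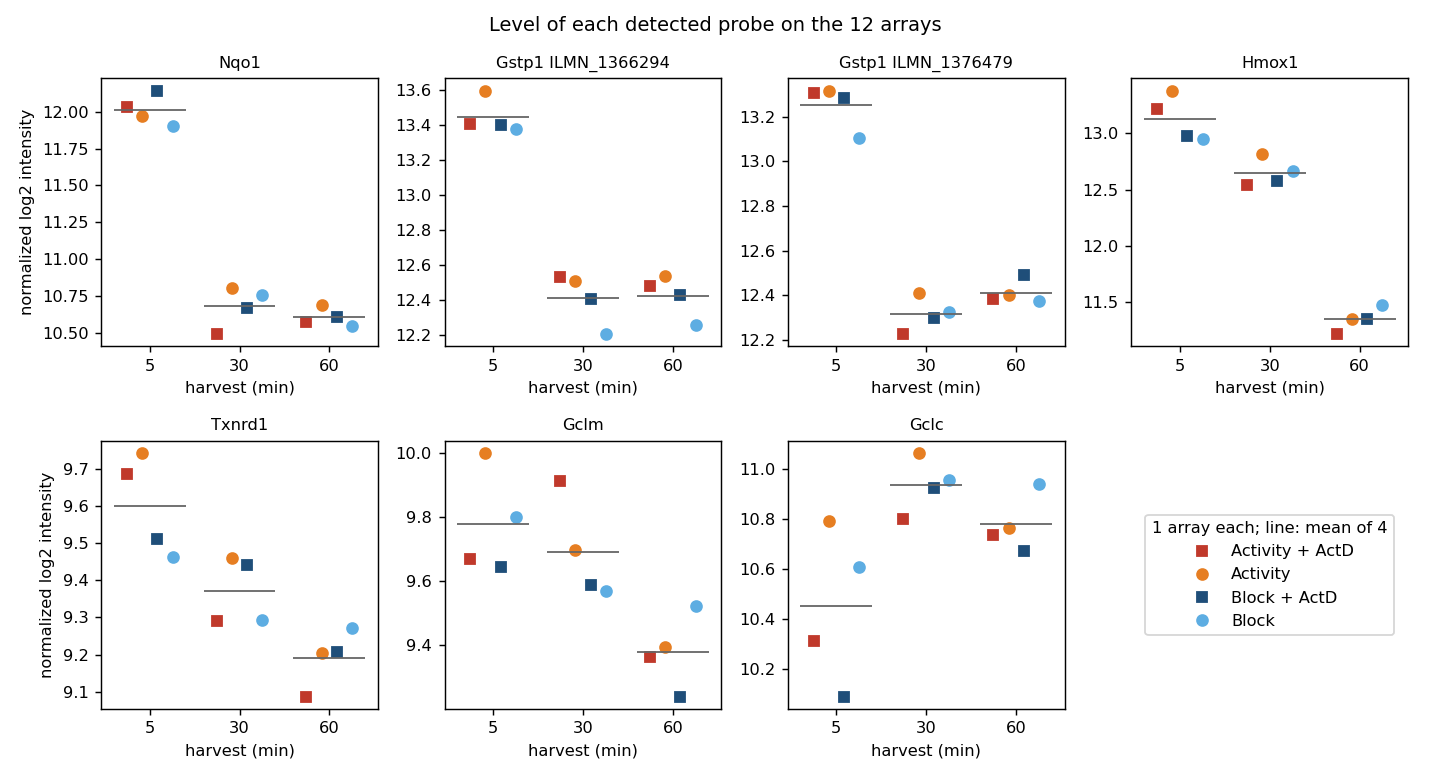
Normalized log2 intensity (vertical axes, each with its own range) of the 7 detected probes at 5, 30 and 60 min, with 1 array for each point and a line at the mean of the 4 arrays of a harvest. Nqo1 and both Gstp1 probes step down once, between 5 and 30 min, Hmox1 steps down at each harvest, and Gclc is higher at 30 min than at 5 min.

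Nqo1 encodes the quinone reductase that spares cells the redox cycling of quinones and is the classic reporter of Nrf2 activity. Its log2 level at 5 min was 12.03 in the Activity culture with ActD, 11.97 in the Activity culture without it, 12.14 in the Block culture with ActD and 11.90 in the Block culture without it. At 30 min these 4 cultures had 10.49, 10.81, 10.67 and 10.75 in the same order, and at 60 min 10.57, 10.69, 10.60 and 10.55. All 8 later arrays lay below all 4 arrays of 5 min, by more than 1 log2 unit. Before normalization the probe read 1466 to 1787 on the later arrays, against 4193 to 4646 at 5 min. The later minus 5 min difference was -1.50 ± 0.08 with ActD (2.83-fold lower, adjusted p = 1.93e-08, limma) and -1.24 ± 0.08 without it (2.36-fold lower, adjusted p = 1.74e-07). The difference between these falls was -0.26 ± 0.11 (adjusted p = 0.21). Between 60 and 30 min Nqo1 differed by -0.08 ± 0.07 (adjusted p = 0.56).

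Gstp1 encodes a cytosolic glutathione transferase that conjugates electrophiles and adds glutathione to proteins. Both detected probes, which the annotation assigns to the same transcript, had their highest values at 5 min. ILMN_1366294 had log2 levels of 13.41 in the Activity culture with ActD, 13.60 in the Activity culture without it, 13.40 in the Block culture with ActD and 13.38 in the Block culture without it at 5 min. Its levels ran from 12.20 to 12.53 at 30 min and from 12.26 to 12.53 at 60 min. ILMN_1376479 ran from 13.10 to 13.32 at 5 min, from 12.23 to 12.41 at 30 min and from 12.37 to 12.49 at 60 min. For neither probe did any later array reach the range of 5 min. With ActD the later minus 5 min difference was -0.95 ± 0.07 for ILMN_1366294 (adjusted p = 6.07e-07, limma) and -0.94 ± 0.07 for ILMN_1376479 (adjusted p = 5.56e-07). Without ActD it was -1.11 ± 0.07 (adjusted p = 2.23e-07) and -0.83 ± 0.07 (adjusted p = 3.24e-06) for the same probes. The difference of 60 against 30 min was 0.01 ± 0.06 for ILMN_1366294 and 0.10 ± 0.06 for ILMN_1376479, with adjusted p-values of 0.93 and 0.40.

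Hmox1 encodes haem oxygenase 1, the inducible enzyme that opens the haem ring to biliverdin, iron and carbon monoxide. It was lower at 30 than at 5 min and lower again at 60 min. At 5 min its log2 level was 13.21 in the Activity culture with ActD, 13.38 in the Activity culture without it, 12.98 in the Block culture with ActD and 12.95 in the Block culture without it. At 30 min the cultures in this order had 12.54, 12.82, 12.58 and 12.66, and at 60 min 11.21, 11.34, 11.35 and 11.47. No array of a harvest overlapped with an array of another harvest. The mean log2 level was 13.13 ± 0.20 at 5 min, 12.65 ± 0.12 at 30 min and 11.35 ± 0.10 at 60 min (SD, n = 4 arrays each). Its raw intensity was 8663 to 12972 at 5 min, 5537 to 6512 at 30 min and 2354 to 2924 at 60 min. The later minus 5 min difference was -1.17 ± 0.10 with ActD (adjusted p = 1.62e-06, limma) and -1.09 ± 0.10 without it (adjusted p = 7.30e-06).

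The comparison of 60 with 30 min, added after the data were seen, leaves out the 4 arrays of 5 min from the contrast. Of all probes 7.96% were called in it, 3.64% higher and 4.32% lower, and of the 7 Nrf2 target probes 2 fell and none rose. Hmox1 was 2.47-fold lower at 60 min (-1.30 ± 0.09, adjusted p = 1.37e-06, limma) and ranked 9 by p among the 11792 probes. The difference was -1.33 in Activity cultures with ActD, -1.47 in Activity cultures without it, -1.22 in Block cultures with ActD and -1.19 in Block cultures without it, so that all 4 kinds of culture had it. Microglial markers were not called in this comparison (0 of 7, median -0.19), although all 7 had negative differences. On equal totals 1 of the 7 was called lower (median -0.22, against -0.04 over all probes). Of markers of other cells, the collagen Col1a2 (-1.57), the oligodendrocyte factor Sox10 (-0.94), the neurofilaments Nefm (-0.71) and Nefl (-0.69), the proteoglycan Lum (-0.64) and the astrocyte filament Gfap (-0.43) were lower at 60 min, and the progenitor receptor Pdgfra (0.50) and the astrocyte connexin Gja1 (0.35) were higher. Their part in the result was not tested. The second probe called was Gclm (-0.31 ± 0.08, adjusted p = 0.028). That call was lost, with adjusted p-values from 0.059 to 0.14, without the Activity 30 min, Activity+ActD 30 min, Block 30 min, Activity 60 min, Activity+ActD 60 min or Block+ActD 60 min array.

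**Figure D2:**
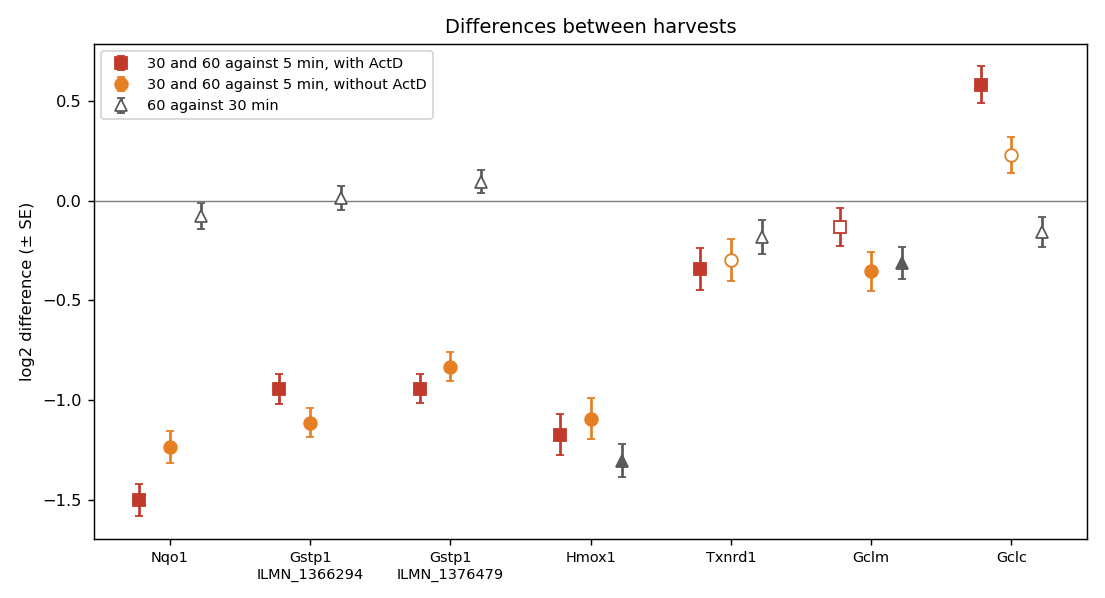
Log2 differences between harvests with their SE (vertical axis) for the 7 probes, as the mean of 30 and 60 min against 5 min with ActD (squares) and without it (circles) and as 60 against 30 min (triangles). Filled symbols had an adjusted p under 0.05. Nqo1 and Gstp1 have filled symbols only against 5 min, whereas Hmox1 is also lower at 60 than at 30 min (-1.30).

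Gclm and Gclc encode the modifier and the catalytic subunit of glutamate-cysteine ligase, which performs the rate-limiting step of glutathione synthesis. They were not both called in any comparison of harvests. Gclc had log2 levels of 10.31 in the Activity culture with ActD, 10.79 in the Activity culture without it, 10.09 in the Block culture with ActD and 10.61 in the Block culture without it at 5 min. In the same order it had 10.80, 11.06, 10.93 and 10.96 at 30 min and 10.73, 10.77, 10.67 and 10.94 at 60 min. The arrays of 5 min thus split by ActD, and those with ActD were the lowest of all 12. With ActD, Gclc rose by 0.58 ± 0.09 on the later arrays (adjusted p = 0.00018, limma). Without ActD the difference was 0.23 ± 0.09 (adjusted p = 0.083), and it reached the threshold without the Activity 60 min array (0.30, adjusted p = 0.036). The difference between the changes with and without ActD was 0.35 ± 0.13 (adjusted p = 0.16).

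Gclm had raw intensities of 801 in the Activity culture with ActD, 1163 in the Activity culture without it, 761 in the Block culture with ActD and 1006 in the Block culture without it at 5 min. Its mean log2 level there was 9.78 ± 0.16 (SD, n = 4 arrays). Its log2 range was 9.57 to 9.91 at 30 min and 9.24 to 9.52 at 60 min, so that the arrays of 60 min lay below all others. With ActD the later minus 5 min difference was -0.13 ± 0.10 (adjusted p = 0.29, limma), and it was 0.10 on intensities scaled to equal totals. Without ActD it was -0.35 ± 0.10 (adjusted p = 0.016). This call was lost without the Activity 5 min (adjusted p = 0.20), the Activity 60 min (0.051) or the Block 30 min array (0.051).

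Txnrd1 encodes the cytosolic thioredoxin reductase, a selenoprotein that returns thioredoxin to its reduced form. Its log2 levels at 5 min were 9.69 in the Activity culture with ActD, 9.74 in the Activity culture without it, 9.51 in the Block culture with ActD and 9.46 in the Block culture without it. They ran from 9.29 to 9.46 at 30 min and from 9.09 to 9.27 at 60 min, and no later array exceeded the lowest array of 5 min. With ActD the later minus 5 min difference was -0.34 ± 0.10 (adjusted p = 0.016, limma). That call was lost on equal totals (-0.11, adjusted p = 0.41) and without the Activity+ActD 5 min (adjusted p = 0.16) or the Activity+ActD 30 min array (0.059). Without ActD the difference was -0.30 ± 0.10 (adjusted p = 0.053). It passed the threshold without the Block 5 min (-0.43, adjusted p = 0.036), the Block+ActD 60 min (0.044) or the Activity+ActD 60 min array (0.044).

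None of the 7 probes had a harvest difference that was called as different between cultures with and without ActD, where 3.72% of all probes were called. Gclc (0.35) and Nqo1 (-0.26) were at an unadjusted p under 0.05. The falls of Nqo1, Gstp1 and Hmox1 were thus measured both with transcription inhibited and with the DMSO solvent, and the size of the fall with ActD differed from that without it by -0.26 for Nqo1, 0.17 and -0.11 for the Gstp1 probes and -0.08 for Hmox1.

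The study asked which transcripts change with 5 min of activity. In the fit used here, which averages the activity difference over the harvests, no Nrf2 target was called. A criterion closer to that of the study, at the 5 min harvest alone, is given below. The activity difference, averaged over the harvests, was called for 0 of 7 probes and 0% of all probes with ActD, and likewise for 0 of 7 and 0% without it. An unadjusted p under 0.05 was reached by 338 of 11792 probes with ActD and by 884 without it. With robust variance estimation the counts of called probes were again 0. With ActD 4 of 7 probes had positive differences, with a median of 0.02, against -0.01 over all probes, of which 47.5% were positive. Without ActD all 7 were positive, with a median of 0.11 against 0.01 over all probes, of which 53.2% were positive. The change of the activity difference with ActD was called for 0 of 7 probes and 0% of all probes, and 755 probes reached an unadjusted p under 0.05. Microglial markers were also measured in this comparison: their median activity difference was -0.20 with ActD (6 of 7 negative) and 0.14 without it (7 of 7 positive), with 0 of 7 called, and their part in the differences of the targets was not tested.

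At single harvests, where 1 array stood against 1 and no test was possible, no Nrf2 target passed 1.5-fold in either direction. The share of all probes past 1.5-fold with ActD was 3.22% at 5 min, 3.85% at 30 min and 3.02% at 60 min. Without ActD it was 3.59% at 5 min, 3.59% at 30 min and 3.77% at 60 min. With ActD the level was higher in the Activity than in the Block culture for 6 of 7 probes at 5 min, 2 of 7 at 30 min and 3 of 7 at 60 min. Without ActD this held for all 7 probes at 5 min and at 30 min and for 3 of 7 at 60 min.

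**Figure D3:**
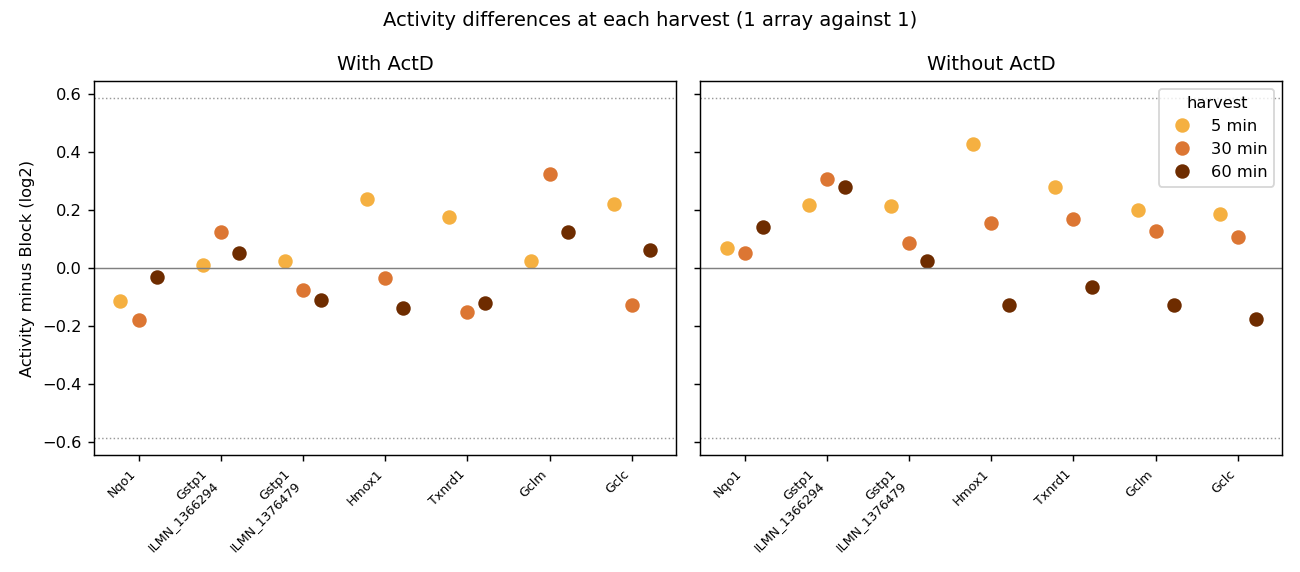
Activity minus Block log2 difference (vertical axis) of each probe at 5, 30 and 60 min with ActD (left) and without it (right), with 1 array against 1 for each point and dotted lines at 1.5-fold. All points lie within the dotted lines, and the highest is Hmox1 at 5 min without ActD (0.43).

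Hmox1 had the highest single activity difference among the targets. At 5 min its raw intensity was 10414 in the Activity culture, against 8712 in the Block culture, with ActD, and 12972 against 8663 without it. On the normalized scale the differences were 0.24 with ActD and 0.43 without it at 5 min, -0.03 and 0.15 at 30 min, and -0.14 and -0.13 at 60 min. Averaged over harvests they were 0.02 ± 0.10 with ActD (adjusted p = 0.996) and 0.15 ± 0.10 without it (adjusted p = 0.71, limma), and without the 5 min harvest they were -0.09 and 0.01.

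By a z-fold criterion after the study's methods, with logging and scoring per array chosen here, a difference in z-scored log intensity of at least 1.4 SD over probes that has 1 sign in both the cultures with ActD and those without it, 1 of the 7 probes was co-regulated at 5 min, where 0.627% of 10040 probes were. This was Hmox1, upwards, with z-folds of 1.57 with ActD and 2.54 without it. On background-corrected, quantile-normalized values 0 targets met the criterion, and on linear intensities 2 did. Txnrd1 came next on the smaller of its z-folds, with 1.18 and 1.38, and Gclc had 1.47 and 0.93. No Nrf2 target met the criterion at 30 min (3.59% of probes did) or at 60 min (0.329%). The z-fold of Hmox1 at 60 min was -0.67 with ActD and -0.45 without it. The criterion compares single arrays and has no replicate check.

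Both Gstp1 probes had activity differences near 0 with ActD, on average 0.06 ± 0.07 for ILMN_1366294 and -0.05 ± 0.07 for ILMN_1376479. Without ActD, ILMN_1366294 was higher in Activity cultures by 0.22 at 5 min, 0.31 at 30 min and 0.28 at 60 min, and ILMN_1376479 by 0.21, 0.09 and 0.03. Averaged over harvests this was 0.27 ± 0.07 for the first (adjusted p = 0.65, limma) and 0.11 ± 0.07 for the second (adjusted p = 0.71). The unadjusted limma p was 0.0012 for the first, which ranked 9 among all probes tested, and 0.14 for the second, which ranked 2330. The difference between the probes was not tested.

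ActD itself was called for 0 of 7 probes and 0% of all probes, whereas 2167 probes reached an unadjusted p under 0.05. The median difference over the 7 was -0.04 against 0.03 over all probes. Gclc was the target with the lowest p. It was lower with ActD in all 6 pairs of arrays, by 0.48 in Activity and 0.52 in Block cultures at 5 min, by 0.26 and 0.03 at 30 min, and by 0.03 and 0.27 at 60 min. The average was -0.27 ± 0.08 (adjusted p = 0.17, limma), and the call passed the threshold without the Block+ActD 30 min array (-0.32, adjusted p = 0.037), where 604 probes were called in all. Hmox1 was lower with ActD in 5 of 6 pairs, with an average of -0.13 ± 0.07 (adjusted p = 0.33). The Gstp1 probes and Nqo1 had average ActD differences of 0.03 ± 0.05, 0.01 ± 0.05 and -0.03 ± 0.06.

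Correlations over the 12 arrays are given as a description, since the arrays share the step between 5 min and the later harvests. Pearson's r between Nqo1 and Gstp1 was 0.96 for ILMN_1366294 and 0.98 for ILMN_1376479. Hmox1 had its highest r with Txnrd1 (0.89) and Gclm (0.82), and Nqo1 and Gclc had -0.72. With the mean of each harvest subtracted, Hmox1 and Txnrd1 had 0.87, whereas Nqo1 and Gstp1 had -0.12 and 0.67. The subunits Gclm and Gclc had -0.02 over the arrays and 0.57 within harvests.

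The named genes with the most similar levels over the 12 arrays, by Pearson's r, also differed between targets. For Nqo1 they were Rnaset2 (0.99), C1r (0.99) and Nfkbia (0.99). For Hmox1 they were Adamts1 (0.98), Cd48 (0.98) and Anxa3 (0.96), and for Txnrd1 Adm (0.97), Ppp1r15a (0.93) and Gadd45a (0.93). Gclc was most like Cat (0.96), Hadhb (0.96) and Calb1 (0.96), and Gclm was most like Itm2a (0.92), Hpgd (0.92) and Ccdc80 (0.92). Gstp1 was most like Ccn1, Adgre1 and Birc3 (0.99, 0.98 and 0.98) with ILMN_1366294, and like Plpp2, Cmpk2 and Mx2 (0.997, 0.995 and 0.993) with ILMN_1376479.

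Other genes of the Nrf2 pathway were read from lists of regulators, glutathione enzymes, thioredoxin and peroxide enzymes, NADPH-supplying enzymes, haem and iron genes, and detoxifying enzymes and exporters. The array held 75 of the 85 genes named in these 6 lists, and 63 of them, with 68 probes, were tested. Later than 5 min, 41 of the 68 probes fell and 8 rose with ActD (median -0.34, against -0.04 over all probes, of which 23.9% were called lower and 23.8% higher). Without ActD 33 fell and 6 rose (median -0.25, against 0.03, with 12.3% of all probes lower and 14.4% higher). On equal totals 36 fell and 9 rose with ActD, where 1863 of the 11792 probes were lower and 3267 higher, and 29 fell and 5 rose without it, where 1120 were lower and 2464 higher. The shares over all probes are the background of the counts of each list. Activity and ActD were called for 0 of the 68. Falls outnumbered rises in each list except NADPH supply, which had 1 of each. The summed intensity of the haem and iron genes overlapped between harvests, with 37940 to 48270 on the later arrays, against 39580 to 40600 at 5 min. Microglial markers were lower on the same later arrays, and the part of the cell make-up in these counts was not tested.

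**Figure D4:**
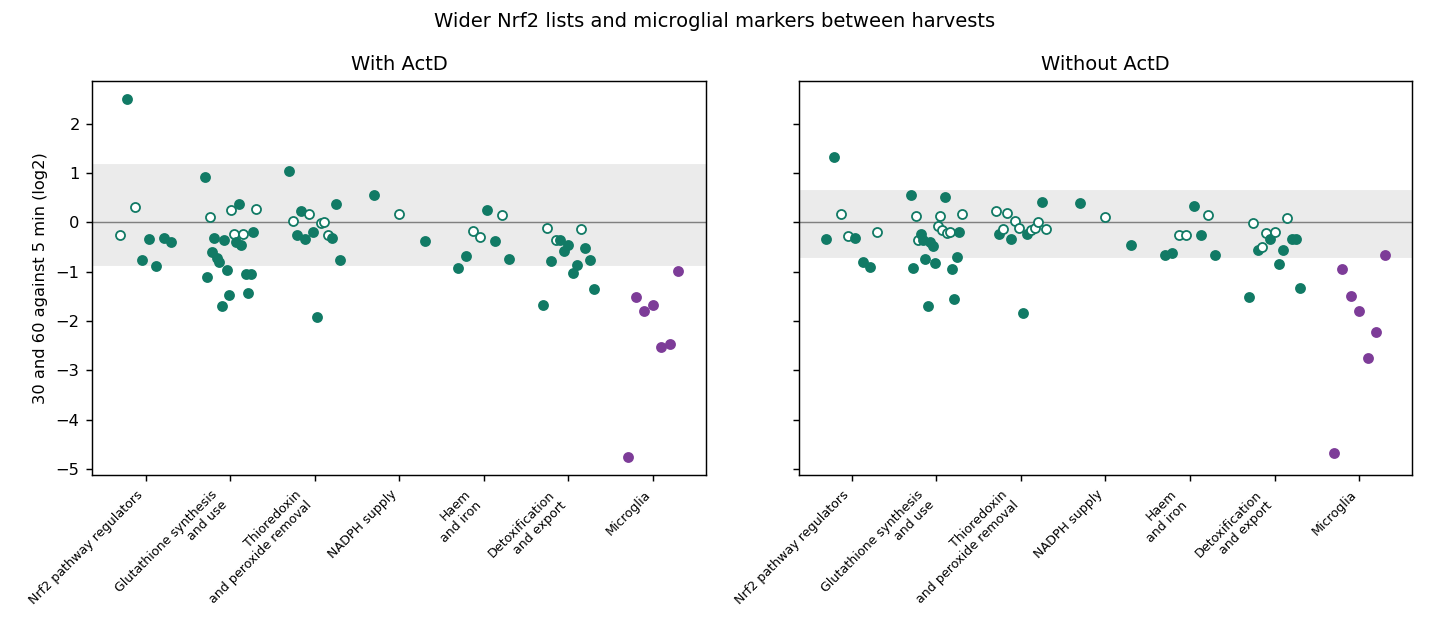
Log2 difference of 30 and 60 min against 5 min (vertical axis) for each tested probe of the 6 Nrf2 pathway lists and of the microglial marker list, with ActD (left) and without it (right). Filled points had an adjusted p under 0.05, and the grey band spans the 5th to the 95th percentile of all probes. Most filled points of the pathway lists lie below 0, and all 7 microglial probes do, down to -4.77 for Aif1.

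Among the regulators, Nfe2l2, which encodes Nrf2 itself, was called lower in both comparisons with 5 min. Its mean log2 level was 9.18 ± 0.40 at 5 min, 8.81 ± 0.11 at 30 min and 8.30 ± 0.10 at 60 min (SD, n = 4 arrays each). The later minus 5 min difference was -0.33 ± 0.11 with ActD (adjusted p = 0.021, limma) and -0.91 ± 0.11 without it (adjusted p = 4.68e-05), and that of 60 against 30 min was -0.51 ± 0.09 (adjusted p = 0.0025). Keap1, the adaptor that holds Nrf2 for degradation, fell by 0.77 ± 0.10 with ActD (adjusted p = 4.21e-05). Without ActD its difference of -0.27 ± 0.10 was not called (adjusted p = 0.067). Cul3, the scaffold of the ligase, rose by 2.50 ± 0.16 with ActD (adjusted p = 1.69e-07) and by 1.33 ± 0.16 without it (adjusted p = 7.54e-05). The difference between these rises was called (1.17 ± 0.23, adjusted p = 0.022, limma). The small Maf genes Mafk (-0.88 with ActD and -0.81 without it) and Mafg (-0.33 and -0.32) fell in both, and Mafg was also lower at 60 than at 30 min (-0.28).

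Of the 22 glutathione probes, 15 fell and 2 rose with ActD, and 12 fell and 2 rose without it. The transferases Gsta4 (-1.70 with ActD and -1.69 without it) and Mgst1 (-1.43 and -1.56) and the peroxidase Gpx1 (-1.11 and -0.93) were among the largest of the falls called in both, as was the transferase Gstm2 (-1.48 and -0.83). Glutathione synthetase Gss (-0.80 and -0.75) and glutathione reductase Gsr (-0.72 and -0.36) fell as well, while the glutaredoxin Glrx (0.91 and 0.55) and the transferase Gstm7 (0.37 and 0.51) rose. The transferase Gstm1 fell by 0.96 with ActD and by 0.49 without it, and the difference between these falls was called (-0.47 ± 0.12, adjusted p = 0.049, limma). The alpha-class genes Gsta1, Gsta2, Gsta3 and Gsta5 were not detected on any array.

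Of the 14 thioredoxin and peroxide probes, 6 fell and 3 rose with ActD, and 4 fell and 1 rose without it, where 23.9% of all probes were lower and 23.8% higher with ActD, and 12.3% lower and 14.4% higher without it. Sod2, the mitochondrial superoxide dismutase, fell by 1.92 ± 0.11 with ActD (adjusted p = 5.27e-08, limma) and had a difference of -1.84 ± 0.11 without it (adjusted p = 9.75e-08). Sod2 is also known as a target of NF-kappaB. Catalase, Cat, was higher with ActD by 1.04 ± 0.12 (adjusted p = 1.23e-05), and Txnip, the inhibitor of thioredoxin, was higher in both (0.37 and 0.42) and at 60 against 30 min (0.52 ± 0.08, adjusted p = 0.0014). Without ActD, the peroxiredoxin Prdx1 (-0.23) fell. For thioredoxin, Txn1, 1 of 3 probes was called without ActD (-0.24), and the others had -0.12 and -0.15.

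Of the 8 haem and iron probes, 4 fell and 1 rose in each comparison with 5 min. The biliverdin reductases Blvra (-0.93 with ActD and -0.66 without it) and Blvrb (-0.68 and -0.61), which act on the product of Hmox1, and the haem transporter Slc48a1 (-0.74 and -0.67) fell. The probes for the ferritin chains, genes with many near-identical copies, differed in direction, with Ftl1 lower (-0.38 and -0.26) and Fth1 higher (0.26 and 0.34, where the rise without ActD was not called on equal totals). None of the 8 was called between 60 and 30 min, where Hmox1 was.

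Of the 13 probes for detoxification and export, 10 fell with ActD and 8 without it, and none rose. Abcc3, an exporter of conjugates (-1.68 with ActD and -1.52 without it), Ugt1a6, a glucuronosyltransferase (-1.35 and -1.33), and Ephx1, an epoxide hydrolase (-1.02 and -0.84), had the largest of these falls. At 60 against 30 min Ephx1 (-0.44), Aldh1a1 (-0.50) and Osgin1 (-0.55) were lower. The 3 probes of NADPH supply were mixed: Taldo1 of the pentose phosphate pathway was lower later (-0.39 and -0.45) and Idh1, an isocitrate dehydrogenase, higher (0.56 and 0.39). Over the lists, the genes called higher later were Cul3, Glrx, Gstm7, Txnip, Fth1 and Idh1 in both comparisons, and Cat and Prdx3 with ActD alone. The change with ActD differed from that without it by 0.82 ± 0.17 for Cat (adjusted p = 0.025, limma). For Prdx3 the difference was 0.03 ± 0.12 (adjusted p = 0.90) and was not called.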

How the data were processed

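Arrays were grouped by the deposited labels. The authors hybridized RNA of pooled coverslips to Illumina RatRef-12 arrays and summarized the beads in BeadStudio (its version is not given in the sources used here). The deposited intensity values were linear and without background subtraction. Detection p-values were deposited beside them, as the authors' software gave them. The other deposited table, used as an alternative and for the z-fold, equals these intensities scaled by 1 factor per array to equal totals. The neqc function of limma 3.58.1 (R 4.3.3), with an offset of 16, corrected the background with the help of the detection p-values, applied quantile normalization and converted the values to log2. The deposited values themselves were not on a log2 scale.

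Each test was two-sided and used lmFit and eBayes of limma with a trended variance, at a Benjamini-Hochberg adjusted p of 0.05. Activity, ActD and their interaction were fitted as 4 treatments with harvest as a factor, so the harvests stood in for replicates. Harvests were compared in 6 cells of harvest and ActD with stimulus as a factor, so the stimuli stood in for replicates. Their p-values measure only the spread between these arrays, which may be technical, and not that between preparations. The number of arrays and the signal over background limit the precision. The z-fold used the 10040 probes detected at p under 0.1 on every array. Logging and scoring each array by itself were choices of this work. The scripts were tested on simulated data.

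The members and gene lists were chosen with earlier results of these data known, and the comparison of 60 with 30 min was added after seeing the data. All members are named. The tested list genes that are named were called in a comparison, but not every called list gene is named. For each member probe the 3 named genes with the highest correlation are given. Gene names and promoters came from the platform annotation and RefSeq GRCr8. Alternatives were the equal totals, quantile normalization without background correction, no filter, detection at p under 0.1 on every array, robust variances, no variance trend, leaving out each array, and leaving out the 5 min harvest.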

Additional observations from a re-analysis of the deposited data

Results flagged for a closer look

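Nqo1 had opposite signs of the activity difference with and without ActD at every harvest. With ActD it was lower in Activity cultures at each of the 3 harvests (-0.18 to -0.03), and without ActD it was higher at each (0.05 to 0.14). The difference between the averages was -0.20 ± 0.12 (adjusted p = 0.70, limma), which did not pass the threshold. No group held enough arrays to look for a single array far from the others.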

How the results depend on the processing

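No paired analysis was possible because each group held 1 array and all arrays shared replicate number 3. Nqo1, Hmox1 and both Gstp1 probes kept their direction and their call in both comparisons with 5 min under all 18 alternatives, as did Gclc with ActD and Hmox1 at 60 against 30 min. Counts of called probes moved by over 1.5 times in some settings. The ActD by harvest interaction gave 279 without background correction, 274 without a filter and 3 without a variance trend, and 0 to 830 without 1 array. Without 1 array the other counts ran from 0 to 604 for ActD, from 3624 (without Block+ActD 5 min) to 5778 later with ActD, from 1109 (without Activity 5 min) to 3351 later without ActD, and from 478 (without Block 30 min) to 916 at 60 against 30 min. On equal totals the share of called probes that were higher was 63.7% rather than 49.8% with ActD, 68.8% rather than 54.1% without ActD, and 34.6% rather than 45.7% at 60 against 30 min, and the median over all probes without ActD was 0.11. The z-fold criterion at 5 min was met by 2 targets on linear intensities and by 0 on background-corrected values. The 60 against 30 min call of Gclm was lost without a variance trend (adjusted p = 0.076), and Txnrd1 without ActD was called with robust variances (0.048). The cause of these shifts was not tested.

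Signs turned only in differences that were not called. Without the 5 min harvest the activity difference without ActD was -0.034 for Gclc and -0.00013 for Gclm, that with ActD was -0.086 for Hmox1 and -0.032 for Gclc, and the ActD difference of Gstp1 (ILMN_1376479) was -0.026. On equal totals Gclm later with ActD was 0.096 and the Txnrd1 interaction of ActD and harvest was 0.094. Without 1 array, signs also turned in the activity difference without ActD of Gclc (-0.088 to 0.15) and Gclm (-0.028 to 0.15), and in that with ActD of Hmox1 (-0.068 to 0.075), Gclc (-0.082 to 0.15) and Txnrd1 (-0.11 to 0.017). They turned in the interaction of activity and ActD of Gclc (-0.12 to 0.14) and Gclm (-0.035 to 0.19), and in the ActD difference of Nqo1 (-0.059 to 0.015), Txnrd1 (-0.075 to 0.0060) and Gstp1 (ILMN_1376479, -0.019 to 0.033). The interaction of ActD and harvest ran from -0.29 to 0.12 for Hmox1, -0.18 to 0.092 for Txnrd1 and -0.22 to 0.00057 for Gstp1 (ILMN_1376479), and Gstp1 (ILMN_1366294) at 60 against 30 min from -0.029 to 0.055.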
